A study of Mus musculus with 23 samples.

Results

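The enzymes and transporters that carry glucose through glycolysis and into and out of glycogen were followed in the quadriceps and the epididymal fat of mice with and without a pancreatic tumor. The set holds 40 genes of the 17194 genes in the count tables of either tissue. They were chosen by symbol from a list of glycolysis and glycogen genes, with the muscle isoforms beside those of other tissues, by a rule that uses no measured value. The choice was made with earlier results of these data known. All 40 were in the fat table of 16962 genes and 39 in the quadriceps table of 12831 genes. Eno1, the enolase of most tissues, had no row in the muscle table.

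Male C57BL/6J mice, 8 weeks old at surgery, received a sham operation (no tumor) or tumor cells in the pancreas. KPC tumors came from 1 clone of a cell line derived from a male mouse whose tumor alleles, a mutant Trp53 among them, were switched on by Pdx1-Cre, carried through the editing procedure without a guide RNA. KPC IL6KO tumors came from 1 clone of the same line in which Il6 had been edited with CRISPR/Cas9. The hosts were not edited in any group, so host cells could make IL-6 in all 3 groups, and a difference between the clones cannot be told apart from the Il6 edit. The paper also reports heavier tumors in the KPC group than in KPC IL6KO, and no correlation of tumor mass with muscle mass. The part of tumor size in the values here was not tested. All mice were killed when the KPC group showed overt wasting. Quadriceps libraries numbered 3 for no tumor and 4 for each tumor group, and fat libraries 4 for each group, 23 in all. Muscle libraries are numbered 1 to 4 and fat libraries 5 to 8, so they were treated as different mice, although the study states 4 animals per group without saying whether the same animals gave both tissues. If they did, the test between tissues took paired libraries as independent. The paper describes different library kits and amounts of RNA for muscle and fat. P-values therefore measure the spread between mice that carried the same clone.

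Glycolysis splits glucose to pyruvate in the cytosol and yields ATP without oxygen. Fast skeletal muscle relies on it for short bursts of work and stores glucose as glycogen, which the phosphorylase pathway opens again during contraction. Muscle uses its own isoforms at several steps, among them Slc2a4 (GLUT4), Pfkm, Pgam2, Eno3 and Pygm, where most other tissues use Slc2a1, Pfkl or Pfkp, Pgam1, Eno1 and Pygb or Pygl. White fat takes up glucose through Slc2a4 in response to insulin, mostly to make triglyceride, and keeps little glycogen.

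Total counts ranged from 19259763 to 74907810 per library. These genes took 6.38% to 7.05% of the counts of no tumor quadriceps, 4.48% to 5.72% in KPC and 6.91% to 7.67% in KPC IL6KO, so the KPC range lay below both others. In fat they took 0.363% to 0.821%. Levels are given as CPM, the reads of a gene scaled to the normalized size of its library. The muscle samples carried their fiber genes throughout, with Ckm at 23791 CPM or more in each library. The fat samples were mixed. Gpx5, a gene of the epididymis, was at 21347 to 54957 CPM in 7 of 12 fat libraries (no tumor 5 and 7, all 4 KPC, KPC IL6KO 6) but only 4.69 to 85.8 CPM in the other 5. The sum of 6 epididymis markers, Gpx5 included, was 42672 CPM or more in those 7 libraries, and it was at least 13491 CPM in the no tumor libraries low in Gpx5 against 751 CPM in KPC IL6KO 5. Adipoq, which marks adipocytes, ranged from 123 to 2829.8 CPM within the no tumor group alone. In such bulk tissue, fewer cells of a type and less RNA per cell cannot be told apart.

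Promoter sequences are shown for the genes with the largest fall and rise in KPC muscle, Pgam2 and Ugp2, and for a pair of textbook hypoxia and E-box targets among the called genes, Ldha and Slc2a1. Each is the 250 bases before the start site listed first for the gene in the RefSeq promoter table (GRCm38.p6), 5′ to 3′ on the strand of the gene, at chr11:5803797-5804046 (minus strand), chr11:21371268-21371517 (minus), chr7:46845554-46845803 (plus) and chr4:119108495-119108744 (plus). Capitals mark an E-box (CANNTG), the letters bound by muscle and other basic helix-loop-helix factors, or ACGTG, the core of the hypoxia response element, on either strand.
Pgam2: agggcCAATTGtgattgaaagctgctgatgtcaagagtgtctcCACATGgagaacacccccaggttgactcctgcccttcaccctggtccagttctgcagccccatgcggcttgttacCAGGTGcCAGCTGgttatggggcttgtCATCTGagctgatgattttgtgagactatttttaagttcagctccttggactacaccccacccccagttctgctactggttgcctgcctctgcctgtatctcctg
Ugp2: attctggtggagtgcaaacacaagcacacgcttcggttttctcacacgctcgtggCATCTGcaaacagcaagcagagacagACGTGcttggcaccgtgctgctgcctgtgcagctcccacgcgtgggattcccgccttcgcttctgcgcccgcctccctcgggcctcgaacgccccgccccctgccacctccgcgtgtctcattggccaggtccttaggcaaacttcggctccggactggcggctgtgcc
Ldha: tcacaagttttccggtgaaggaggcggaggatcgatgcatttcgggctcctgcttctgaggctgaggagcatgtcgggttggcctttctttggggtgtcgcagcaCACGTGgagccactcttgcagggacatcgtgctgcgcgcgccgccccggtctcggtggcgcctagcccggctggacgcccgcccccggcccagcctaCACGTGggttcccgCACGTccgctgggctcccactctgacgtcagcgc
Slc2a1: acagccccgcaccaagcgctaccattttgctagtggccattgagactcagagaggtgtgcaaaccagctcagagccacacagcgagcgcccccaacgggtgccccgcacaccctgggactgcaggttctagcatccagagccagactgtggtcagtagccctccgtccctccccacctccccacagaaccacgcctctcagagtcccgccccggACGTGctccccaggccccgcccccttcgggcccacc

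The Ldha window lies inside the annotated span of the gene, whose 5′ end lies further upstream. The Pgam2 window held 5 E-boxes and no ACGTG. That of Ldha held CACGTG, which is an E-box and contains ACGTG on both strands, at -145 and -48 and another ACGTG at -34 from the start site. Slc2a1 had ACGTG at -36, and Ugp2 had it at -169 beside an E-box at -195. A second listed window of Ldha held 2 E-boxes and that of Ugp2 held 1, both without ACGTG. Over windows of 300 bases (250 before and 50 after the start), ACGTG on either strand was present in 43.6% of the 55 promoters of the 37 genes with an entry and in 19.6% of all 32851 promoters. The E-box was in 74.5% and 72.3%, and CACGTG, counted in both, in 12.7% and 7.15%. By gene, ACGTG was found for 5 of 8 that rose, 4 of 9 that fell and 11 of 19 that were not called in KPC quadriceps. These matches describe letters in a window and were not tied to binding in this tissue.

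The first question was what the KPC tumor did to these transcripts in muscle. In lower glycolysis 3 of 6 genes fell (Pgk1, Pgam2 and Eno3), and so did 1 of 2 lactate dehydrogenases, Ldha. Of 6 genes for glycogen synthesis 3 rose and 1 fell, and transcripts for 2 subunits of the kinase that activates glycogen phosphorylase fell. Of the 39 genes, 8 rose (20.5%) and 10 fell (25.6%) at an FDR of at most 0.05 and a fold change (FC) of at least 1.5, where 26.7% and 29.0% of all 12831 genes rose and fell. The share of called genes was thus near that of the whole table, and the genes did not move one way. Their median log2 FC was -0.19, against -0.03 for all genes. KPC and no tumor CPM did not overlap for 22 of the 39 (56.4%), against 65.3% of all genes. Unless another fit or test is named, FC and FDR values are from edgeR's quasi-likelihood test with the 3 groups in 1 fit. Benjamini-Hochberg adjustment was over all genes of the table.

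**Figure D1:**
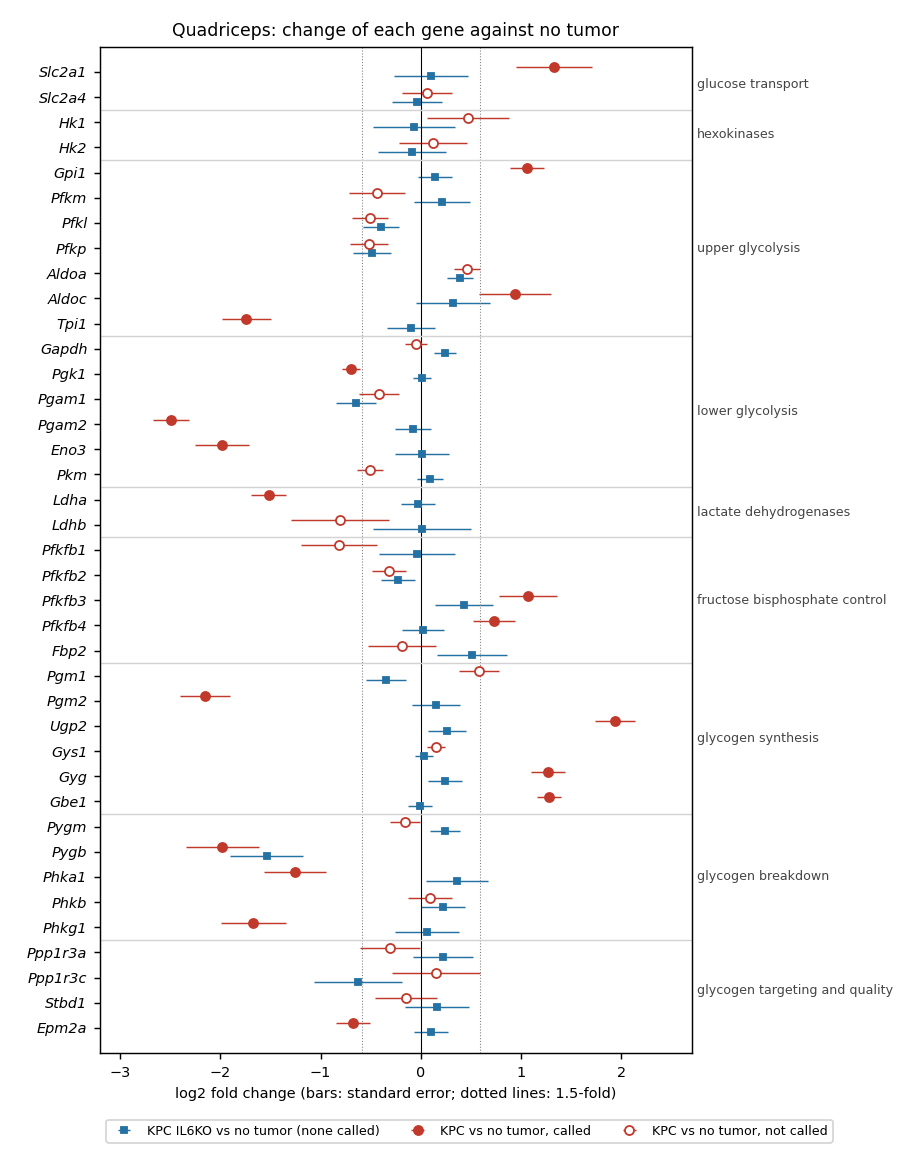
Log2 FC in quadriceps of each of the 39 glycolysis and glycogen genes, grouped by role, for KPC (circles, filled where called) and KPC IL6KO (squares) against no tumor. Bars are 1 standard error from edgeR and dotted lines mark an FC of 1.5. In KPC 8 genes rose and 10 fell, and in KPC IL6KO none was called.

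Pgam2, the muscle phosphoglycerate mutase of lower glycolysis (chr11:5801640-5803733, minus strand), had the largest fall. Its CPM was 2079, 1939 and 2168 in no tumor quadriceps, 329.8, 469.5, 281 and 387 in KPC, and 2233, 2208, 1672 and 1695 in KPC IL6KO. Every KPC library lay below every library of the other groups. The fall from no tumor was 5.62-fold (log2 FC -2.49, SE 0.18, FDR 1.37e-06), and that from KPC IL6KO was 5.32-fold (FDR 1.25e-06). Eno3, the muscle enolase and the next step of the pathway (chr11:70657202-70662513, plus strand), was at 6597, 6094 and 7295 CPM in no tumor. KPC libraries measured 1349, 2254, 879.8 and 2286 CPM, and those of KPC IL6KO 7051, 7423, 5865 and 6548. The KPC range was again separate, with a 3.94-fold fall (log2 FC -1.98, SE 0.27, FDR 7.24e-05).

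Ldha, the lactate dehydrogenase subunit of fast muscle (chr7:46841475-46855627, plus strand), was at 3197, 3002 and 3569 CPM in no tumor, at 1045, 1368, 815 and 1319 in KPC, and at 3379, 3296, 2854 and 3228 in KPC IL6KO. It fell 2.86-fold in KPC (log2 FC -1.52, SE 0.17, FDR 1.53e-05). Ldhb, the subunit of oxidative tissue, varied much more. It was at 216, 198 and 84.9 CPM in no tumor and at 34.6, 90.7, 58.8 and 196 in KPC, the groups overlapped, and the log2 FC of -0.81 (SE 0.49, FDR 0.157) was not called. Without KPC 4 it was -1.44 and past the threshold.

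Upstream, Tpi1, which interconverts the triose phosphates (chr6:124810586-124814296, minus strand), was at 2683, 2514 and 2842 CPM in no tumor against 697, 1016, 441 and 1053 in KPC. It fell 3.34-fold (log2 FC -1.74, SE 0.24, FDR 7.9e-05), and KPC IL6KO stayed at 2164 to 2739 CPM. Pgk1, the first ATP-yielding enzyme (chrX:106187100-106203699, plus strand), showed a smaller and tighter fall. Its CPM was 518, 469 and 489 in no tumor, 296, 319.6, 281 and 317 in KPC and 487 to 509 in KPC IL6KO (1.62-fold lower in KPC than in no tumor, log2 FC -0.70, SE 0.09, FDR 4.62e-05).

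Not every glycolytic transcript was lower in KPC than in no tumor. Gapdh, between Tpi1 and Pgk1 in the pathway, was at 5498, 5153 and 6281 CPM in no tumor and 5754, 5563, 5012 and 5485 in KPC (log2 FC -0.05, SE 0.11, FDR 0.706). Against KPC IL6KO it was lower without overlap but not called, at 1213 to 1392 CPM per kilobase of exon in KPC and 1552 to 1736 in KPC IL6KO. Aldoa, the muscle aldolase and the most abundant of these transcripts, measured 15179 to 18739.7 CPM in no tumor and 19674 to 24377 in KPC. Its increase passed the FDR but not the fold limit (1.37-fold, FDR 0.00956), and KPC IL6KO libraries lay at the same height (19793 to 23915 CPM). Pkm, pyruvate kinase, went the other way at 1.42-fold (FDR 0.00451), also under the fold limit. Pfkm, the muscle phosphofructokinase and the committed step, measured 3939 to 4627 CPM in no tumor and at 3974, 3817, 1361 and 3226 in KPC, so 1 library, KPC 3, was far below the rest (log2 FC -0.44, SE 0.28, FDR 0.179). Hk2, the insulin-regulated hexokinase that traps glucose in muscle, ranged from 205 to 703 CPM in KPC and overlapped no tumor (329 to 374 CPM, log2 FC 0.12, SE 0.34, FDR 0.771). Hk1, the hexokinase of most tissues, was at 8.36 to 9.45 CPM in KPC 1 to 3 but 32.3 in KPC 4 (10.1 to 11.1 in no tumor, FDR 0.333).

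Gpi1, glucose-6-phosphate isomerase at the head of the pathway (chr7:34201330-34230336, minus strand), rose. Its CPM was 963, 934 and 1160.1 in no tumor, 2190.2, 1598, 2799 and 1930.4 in KPC, and 1121, 1090.4, 1194 and 1099 in KPC IL6KO. That was 2.09-fold above no tumor (log2 FC 1.06, SE 0.17, FDR 0.000219) and 1.89-fold above KPC IL6KO (FDR 0.000298). Pfkfb3 and Pfkfb4, whose products set fructose 2,6-bisphosphate, the activator of phosphofructokinase, rose as well. Pfkfb3 was at 559, 526 and 491 CPM in no tumor and at 1534, 1061, 1129.8 and 681 in KPC (2.1-fold, log2 FC 1.07, SE 0.29, FDR 0.00650). Pfkfb4 was at 69.2, 72.0 and 117 CPM in no tumor and 190.2, 129.6, 127 and 123 in KPC (1.66-fold, FDR 0.00983). Its log2 FC was under the fold limit without KPC 1 (0.56) and with library totals without scaling (0.53). Pfkfb1, the liver and muscle form, measured 51.4 to 53.9 CPM in no tumor and split in KPC, at 12.6 and 15.6 in KPC 1 and 3 and 45.3 and 46.7 in KPC 2 and 4 (log2 FC -0.82, SE 0.38, FDR 0.0745), and was past the threshold without KPC 2 (-1.09) or KPC 4 (-1.11) and also with the replicate number as a block (-1.13, FDR 0.0272), DESeq2 (FDR 0.0486), the likelihood ratio test (FDR 0.0495) and library totals without scaling (FDR 0.0474). Aldoc, the brain aldolase, was called at 1.92-fold (FDR 0.0372) from 0.312 to 0.512 CPM in no tumor and 0.489 to 1.05 in KPC, only 10 to 68 counts, with overlap. It was not called without no tumor 1, no tumor 2, KPC 1 or KPC 2 (log2 FC 0.69 to 0.90), nor in a fit of the 2 groups alone (FDR 0.0647), with a replicate block (FDR 0.0815) or with library totals without scaling (FDR 0.0854).

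**Figure D2:**
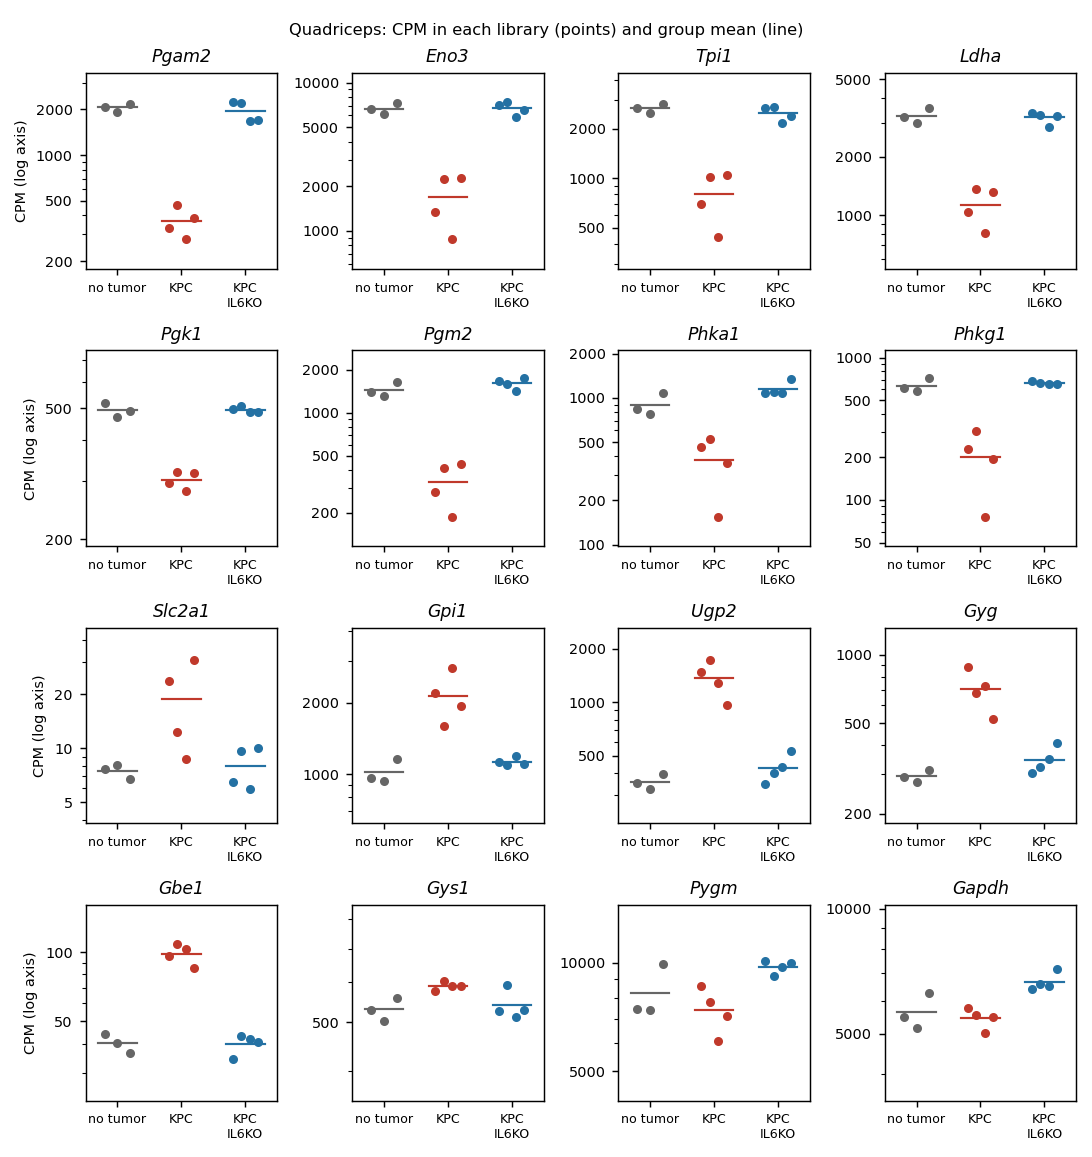
CPM of 16 glycolysis and glycogen genes in each of the 11 quadriceps libraries, 1 panel per gene with its own log axis, points for libraries and lines for group means. KPC points lie below both other groups for Pgam2, Eno3, Tpi1, Ldha, Pgk1, Pgm2, Phka1 and Phkg1 and above both for Gpi1, Ugp2, Gyg and Gbe1. For Slc2a1 they lie above no tumor and 1 KPC library lies within the KPC IL6KO range.

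Glucose transporters differed between isoforms. Slc2a4, the insulin-responsive transporter, was at 629.8, 602 and 664 CPM in no tumor and spread widely in KPC at 941, 639, 372 and 691 (log2 FC 0.06, SE 0.25, FDR 0.827). Slc2a1, the basal transporter (chr4:119108711-119137983, plus strand), was at 7.71, 8.03 and 6.71 CPM in no tumor, 23.7, 12.3, 8.77 and 30.8 in KPC and 6.46, 9.68, 5.93 and 10 in KPC IL6KO. It rose 2.51-fold over no tumor without overlap (log2 FC 1.33, SE 0.38, FDR 0.00874) and 2.35-fold over KPC IL6KO (FDR 0.00723), where KPC 3 lay within the KPC IL6KO range. Per kilobase of exon, Slc2a4 remained far above it. The means were 182 against 2.13 CPM in no tumor and 190 against 5.39 CPM in KPC.

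On the way to glycogen, 3 of 6 genes rose and 1, listed as Pgm2, fell. Ugp2, which makes UDP-glucose (chr11:21321138-21371201, minus strand), had the largest rise, with 353, 324 and 394 CPM in no tumor, 1478, 1727, 1285 and 972 in KPC, and 348, 401, 431 and 533 in KPC IL6KO. It rose 3.83-fold (log2 FC 1.94, SE 0.20, FDR 1.14e-05). Gyg, glycogenin, which primes each particle (chr3:20122084-20155317, minus strand), rose 2.41-fold from 291, 274 and 310.2 CPM to 887, 680.4, 728 and 522 (log2 FC 1.27, SE 0.17, FDR 6.36e-05). Gbe1, the branching enzyme (chr16:70313949-70569716, plus strand), rose 2.43-fold from 44.1, 40.4 and 36.4 CPM to 95.7, 108, 103 and 85.7 (log2 FC 1.28, SE 0.12, FDR 5.89e-06). In KPC IL6KO, Gyg was at 300.2 to 411 CPM and Gbe1 at 34.3 to 43.4. Gys1, the muscle glycogen synthase itself, measured 504 to 559 CPM in no tumor and 577 to 605 in KPC, a separate but small step (log2 FC 0.15, SE 0.09, FDR 0.161).

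Pgm2, listed here by the symbol in the table, fell 4.43-fold. It was at 1399, 1308 and 1654 CPM in no tumor, 277, 410.2, 186 and 441 in KPC and 1666, 1600.1, 1430.3 and 1746 in KPC IL6KO (log2 FC -2.15, SE 0.25, FDR 1.89e-05). Pgm1 was at only 2.25 to 3.07 CPM in no tumor and 3.30 to 5.23 in KPC, with an increase under the fold limit (log2 FC 0.58, FDR 0.0244) that passed it without KPC 1, KPC 2 or no tumor 1 and with DESeq2 or its normalization (0.61 to 0.70). Both symbols belong to phosphoglucomutases, which link glucose 6-phosphate to glycogen, but annotation releases have exchanged them between the same 2 loci, so that which protein each row stands for was not settled and no position is given.

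For glycogen breakdown, Pygm, the muscle phosphorylase, was at 7425, 7413 and 9912 CPM in no tumor and 8643, 7776, 6064 and 7116 in KPC (log2 FC -0.16, SE 0.15, FDR 0.364). Against KPC IL6KO it was lower without overlap but not called, at 1884 to 2686 CPM per kilobase of exon in KPC and 2858 to 3138 in KPC IL6KO. Phosphorylase kinase, which activates the phosphorylase, changed by subunit. Phkg1, the catalytic subunit of muscle (chr5:129863421-129898549, minus strand), was at 612, 579 and 716 CPM in no tumor, 227, 304, 75.6 and 193 in KPC and 648 to 689 in KPC IL6KO (3.18-fold fall, log2 FC -1.67, SE 0.32, FDR 0.000768). Phka1, the muscle regulatory subunit (chrX:102513975-102644246, minus strand), was at 841, 782 and 1071 CPM in no tumor and 461, 525, 155 and 362 in KPC (2.39-fold fall, FDR 0.00356). Phkb, the subunit shared with other tissues, measured 385 to 492 CPM in no tumor and 284 to 613 in KPC (log2 FC 0.09, SE 0.22, FDR 0.725).

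Pygb, the brain phosphorylase, was the only one of the 10 falling genes that was not also called lower in KPC than in KPC IL6KO. Its CPM was 15.8, 37.1 and 12.7 in no tumor, 4.16, 8.80, 3.91 and 5.42 in KPC and 8.63, 6.28, 7.49 and 7.79 in KPC IL6KO. Against no tumor it fell 3.94-fold in KPC (FDR 0.000503), and against KPC IL6KO the log2 FC was -0.44 (SE 0.34, FDR 0.265). No tumor 2, the highest library, also had the most adipocyte transcripts, with a sum of 6 adipocyte markers of 1345 CPM where that group began at 298. Without it the fall of Pygb in KPC was -1.36 on the log2 scale and still called. The adipocyte sum was 125 to 675 CPM in KPC and 139 to 312 in KPC IL6KO. All 6 markers had lower estimates than in no tumor in both groups, with 1 called in KPC and 0 in KPC IL6KO. The part of adipocyte content in the Pygb values was not tested.

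Epm2a, laforin, a phosphatase that keeps glycogen soluble, fell 1.61-fold, from 36.9 to 41.5 CPM in no tumor to 24.8, 30.2, 16.1 and 26.8 in KPC (FDR 0.00407). Without KPC 3 its log2 FC was -0.53, under the fold limit. Ppp1r3a, Ppp1r3c and Stbd1, which target phosphatase or autophagy to glycogen, were not called (FDR 0.380 to 0.779), though Ppp1r3a was without KPC 2 (log2 FC -0.64, FDR 0.0348, against -0.31). Stbd1 was at 40.1 to 43.4 CPM in KPC 1 to 3 and 14 in KPC 4.

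The KPC libraries were not alike. KPC 3 was the lowest of the 4 for all 10 genes that fell, and without it 9 of them were still called. The highest library for the 8 rising genes was KPC 1 for 4, KPC 2 for 2 and KPC 3 and KPC 4 for 1 each. General muscle content moved in part with these changes. The sum of 5 skeletal muscle markers was 72562 to 88315 CPM in no tumor, 54861 to 65691 in KPC and 89647 to 96403 in KPC IL6KO, and 1 of the 5 rose (Des) while 2 fell (Acta1 and Tnnc2) in KPC, with a median log2 FC of -0.69 over the 5. Over 7 fast-fiber markers the sums were 145353 to 180019, 130766 to 155841 and 157827 to 174448 CPM, with 2 of 7 lower (Mylpf and Pvalb). The 4 fibroblast markers together were at 900.1 to 989.7 CPM in no tumor, 158 to 261 in KPC and 502 to 764 in KPC IL6KO, and 3 neutrophil markers at 0.359 to 0.658, 3.76 to 20.3 and 2.05 to 3.74. In the same order of groups, 1 erythrocyte gene was at 1.95 to 2.55, 4.47 to 17.6 and 3.75 to 6.43 CPM. It was called higher in KPC than in no tumor, as was 1 of 2 epithelial markers. The epithelial sums were 0.359 to 2.46, 0.702 to 13.5 and 0.326 to 0.754 CPM. Sums for slow-fiber, adipocyte, macrophage, endothelial and dividing-cell markers overlapped between KPC and no tumor. The part of such shifts in the glycolytic changes was not tested.

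Whether these changes followed the Il6 edit in the tumor was addressed by the KPC IL6KO mice. In their quadriceps none of the 39 genes was called against no tumor by edgeR's quasi-likelihood test, where 0% of all genes rose and 0% fell. At an unadjusted p under 0.05 there were 5 of 39 (Pfkl, Pfkp, Aldoa, Pgam1 and Pygb), where all genes gave 887 of 12831, and the smallest FDR was 0.289, for Pygb (log2 FC -1.54, SE 0.36). DESeq2 and edgeR's likelihood ratio test each called Pygb, and without no tumor 2 the log2 FC was -0.92. The median log2 FC over the 39 was 0.03, against 0.00 for all genes. No tumor and KPC IL6KO did not overlap for 6 genes (15.4%), against 15.5% of all genes. Besides Pygb, the 6 largest falls in KPC were in genes with estimates of -0.08 (SE 0.18) for Pgam2, 0.01 (SE 0.27) for Eno3, -0.03 (SE 0.17) for Ldha, -0.10 (SE 0.24) for Tpi1, 0.15 (SE 0.24) for Pgm2 and 0.06 (SE 0.32) for Phkg1. For Ugp2 and Gyg they were 0.26 (SE 0.19) and 0.24 (SE 0.17), and neither was called.

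A direct comparison of KPC with KPC IL6KO quadriceps gave 8 genes that were higher (20.5%) and 11 that were lower (28.2%) in KPC, against 26.4% and 27.3% of all genes. The median was -0.13, against -0.01 for all genes, and 20 of 39 (51.3%) did not overlap, against 62% of all genes. The fall of Pgm2 was 4.90-fold (log2 FC -2.29, SE 0.24, FDR 8.45e-06) and that of Eno3 3.97-fold (FDR 4.78e-05). Phka1 and Phkg1 were 3.07-fold and 3.32-fold lower (FDR 0.000469 and 0.00041). Ugp2 was 3.19-fold higher (log2 FC 1.67, SE 0.18, FDR 1.29e-05), Gbe1 2.45-fold (FDR 2.91e-06) and Gyg 2.04-fold (FDR 0.000131). Pgm1 (1.90-fold higher, FDR 0.000938), Pkm (1.52-fold lower, FDR 0.000966) and Pfkm (1.57-fold lower, FDR 0.0421) were called here and not against no tumor, though this comparison has the same KPC libraries. Pfkm had a log2 FC of -0.40 without KPC 3, under the fold limit, and missed the FDR with any other library left out but KPC 1 or KPC 2 (FDR 0.0514 to 0.0817) and in the fit of the 2 groups. Pkm was under the fold limit without KPC 3 (-0.52) or no tumor 1 (-0.57) and with DESeq2 or its normalization (both -0.58). Pfkfb3, at 1044, 598, 739 and 454 CPM in KPC IL6KO, overlapped KPC and passed narrowly (1.55-fold, FDR 0.0487). The call was lost with any 1 library left out but KPC 4 or KPC IL6KO 1 (FDR 0.0519 to 0.158, log2 FC 0.43 to 0.67) and in a fit of the 2 groups alone (FDR 0.0922). Aldoc and Pygb were the only genes called against no tumor and not here.

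Isoform pairs were compared within each library as a log2 ratio of counts, which does not depend on library scaling. In quadriceps, Pgam2 counts were 353, 214 and 409 times those of Pgam1 in no tumor, 68.5, 103, 44.3 and 85.6 times in KPC and 512, 513, 363 and 425 times in KPC IL6KO. The mean log2 ratio in KPC was 2.13 units under no tumor and 2.64 under KPC IL6KO. Slc2a4 counts were 81.6, 74.9 and 98.6 times those of Slc2a1 in no tumor, 39.7, 52.1, 42.4 and 22.4 times in KPC and 69.4 to 87.8 times in KPC IL6KO. The pair of phosphorylases went the other way. Pygm counts were 469.9, 200 and 782 times those of Pygb in no tumor, 2075, 883, 1547 and 1311 times in KPC and 1169, 1463, 1301 and 1279.6 times in KPC IL6KO, so both tumor groups lay above no tumor. Each of these shifts had the smallest p that a 2-sided exact permutation test allows with 4 against 3 or 4 libraries, p = 0.0286. Pfkm/Pfkl reached it as well, with a log2 ratio 0.64 units lower in KPC than in KPC IL6KO, as did Pfkm/Pfkp, 0.69 units higher in KPC IL6KO than in no tumor. After adjustment over the 24 tests in quadriceps this p was 0.0857, so none passed 0.05. With so few libraries no shift of any size could pass unless most of the 24 tests reached the smallest p. Hk2/Hk1, Aldoa/Aldoc and Ldha/Ldhb overlapped between groups in every comparison (exact permutation p = 0.114 to 0.886). In spite of these shifts the muscle isoform held most of the counts of every pair in every quadriceps library shown.

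**Figure D3:**
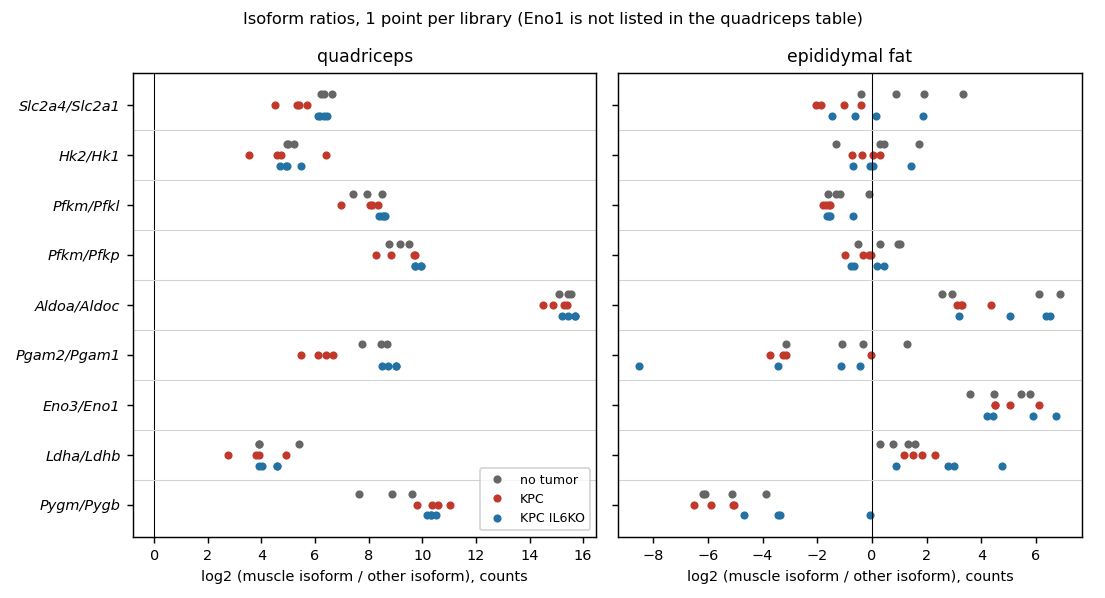
Log2 ratio of the counts of muscle isoforms to those of other isoforms in each library of quadriceps and fat, 1 point per library. In quadriceps the KPC points of Pgam2/Pgam1 and Slc2a4/Slc2a1 lie under both other groups, and in fat the Pgam2/Pgam1 points run from -8.50 to 1.27.

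The order of the levels, per kilobase of exon, was also different in KPC muscle. In no tumor quadriceps Aldoa led with 4425 ± 542 CPM per kilobase (SD, n = 3), followed by Eno3 (3831 ± 347), Pygm (2564 ± 447), Pgam2 (2455 ± 137) and Gapdh (1366 ± 139.8). The ranges of Aldoa and Eno3 overlapped, as did those of Pygm and Pgam2 and of Gapdh and Pfkm (1254 ± 114). In KPC Aldoa still led with 6071 ± 544 (SD, n = 4), but Eno3 (973 ± 399) came after Pygm (2299 ± 338) and overlapped Gapdh (1319.5 ± 76.3), and Ugp2 (445 ± 104) and Pgam2 (437 ± 96.4) were level within their SD.

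Other genes of the same pathways, fixed as lists, were measured beside them. Over all genes tested, 26.7% rose and 29.0% fell. Of 8 other transport genes 1 rose (12.5%) and 2 fell (25%). Slc16a1, a lactate and pyruvate carrier, rose 2.23-fold in KPC (FDR 0.000494 by edgeR), and Slc2a12 and Bsg, the chaperone of lactate carriers, fell (4.23-fold and 1.5-fold). Of 8 other glycolysis genes 2 rose (25%), without being named here, and 4 fell (50%), namely Bpgm, Eno2, Hk3 and Ldhd, with a median log2 FC of -0.19 over the 8.

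Among 17 other glycogen genes, 5 rose (29.4%) and 6 fell (35.3%), with a median of 0.22. Gaa, the lysosomal glucosidase that breaks glycogen down by another route, rose 4.6-fold (FDR 1.21e-05). Gsk3b, a kinase that inhibits glycogen synthase, rose 2.73-fold. Pygl, the liver phosphorylase, Ppp1r3b and Ppp1r3e, glycogen-targeting subunits of phosphatase 1, fell 3.74-fold, 3.06-fold and 2.79-fold from low levels (means of 12.5, 2.12 and 2.09 CPM in no tumor). Of the 5 genes for glucose production, G6pc3 and Pck2 rose (2.03-fold and 1.62-fold), and Slc37a4, the glucose 6-phosphate carrier of the endoplasmic reticulum, fell 7.84-fold (FDR 4.64e-06).

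Regulators of these pathways were measured too. Of 18, 9 rose (50%) and 3 fell (16.7%), with a median of 0.55. Foxo1, a fasting-induced transcription factor, rose 7.05-fold, from 14.3, 23.1 and 35 CPM to 232, 128, 185 and 132 (FDR 1.81e-05). Tbc1d1, which controls movement of GLUT4 to the surface, rose 5.36-fold and Klf15, a glucocorticoid-responsive factor, 4.94-fold. Prkag3, the AMPK subunit of fast muscle, fell 12.5-fold (FDR 2.77e-06) and Mef2c, a muscle transcription factor, 5.82-fold. All 5 were called in the same direction against KPC IL6KO.

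In epididymal fat none of the 40 genes was called in any comparison by edgeR's quasi-likelihood test, where 0% of all 16962 genes rose and 0% fell. The spread between fat libraries was larger, with a biological coefficient of variation of 63.5% against 22.7% in quadriceps. In each of the 3 comparisons 10 of the 40 had an unadjusted p under 0.05, where all 16962 genes gave 2061 in KPC against no tumor, 1584 in KPC IL6KO against no tumor and 1062 in KPC against KPC IL6KO. KPC and no tumor did not overlap for 7 of 40 (17.5%), against 10.9% of all genes. KPC IL6KO and no tumor did not overlap for 3 (7.50%), against 2.01%, and KPC and KPC IL6KO for 6 (15%), against 4.33%. The medians were -0.26 in KPC against no tumor, 0.14 in KPC IL6KO against no tumor and -0.43 in KPC against KPC IL6KO, where those of all genes were -0.10, -0.03 and -0.05.

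With all libraries in the fit, Slc2a4 had the largest log2 FC between KPC and no tumor fat. Its CPM was 39.6, 254, 18.8 and 79.3 in no tumor, 15.3, 25.2, 16.6 and 14.5 in KPC and 21.9, 33.8, 92.6 and 63.3 in KPC IL6KO. KPC values were low and close together, but no tumor 7 lay among them (log2 FC -2.45, SE 0.73, FDR 0.255). Pfkfb3 and Ppp1r3c, the latter a glycogen-targeting phosphatase subunit, had the same form. Pfkfb3 was at 212, 794, 80.3 and 237 CPM in no tumor, 100.1, 82.4, 86.6 and 72.8 in KPC and 127, 158, 508 and 247 in KPC IL6KO (KPC against no tumor, log2 FC -1.95, SE 0.63, FDR 0.284). Ppp1r3c was at 11.5, 48.9, 7.79 and 31.6 CPM in no tumor, 6.16, 8.14, 6.43 and 4.10 in KPC and 9.82, 12.1, 28.0 and 41.4 in KPC IL6KO (log2 FC -2.00, SE 0.62, FDR 0.274). For all 3, no tumor 6 was the highest library of its group. It was at 254 and 794 CPM for Slc2a4 and Pfkfb3 against 79.3 and 237 in no tumor 8, so both log2 FC leaned on it. No tumor 6 also had the most Adipoq (2829.8 CPM), followed by no tumor 8 (991 CPM). KPC fat had Adipoq at 189 to 324 CPM. The sum of 6 adipocyte markers spread more, with 931 to 17396 CPM in no tumor, 1587 to 8307 in KPC and 2617 to 10257 in KPC IL6KO, so that the groups overlapped and KPC 5, the highest of its group, was not low. The part of adipocyte content in these values was not tested.

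By sign alone, 14 of the 40 genes were higher and 26 lower in KPC than in no tumor fat, where 6884 and 10078 of all genes were, with 5 of 7 upper and 4 of 7 lower glycolysis genes on the higher side. Pkm was at 381, 492, 408 and 458 CPM in no tumor, 777, 596, 621 and 971 in KPC and 1419.8, 420.2, 519 and 882 in KPC IL6KO. KPC lay above no tumor throughout (log2 FC 0.77, SE 0.36, FDR 0.431). Pgk1 measured 53.2 to 78.2 CPM in no tumor and 80.8 to 121 in KPC (log2 FC 0.63, SE 0.36, FDR 0.537), and Slc2a1 at 21.1 to 25.3 and 33.2 to 63.6 (log2 FC 0.98, SE 0.39, FDR 0.361). Pgm1, by its symbol in the table, had the smallest FDR, 0.225, with 14.2, 12.4, 10.5 and 12.2 CPM in no tumor, 31.9, 27.2, 20.3 and 30.8 in KPC and 37.1, 14.6, 16.0 and 26.6 in KPC IL6KO (log2 FC 1.16, SE 0.29). When only the 7 fat libraries rich in Gpx5 were compared, its log2 FC was 1.25 and the FDR 0.0480, and 5 other settings also called it. In KPC IL6KO, the highest Pkm (1419.8 CPM) and Ldha (1053 CPM) were in library 5, which had the most Krt8, an epithelial keratin (1093 CPM), and the most Mki67, a marker of dividing cells (324 CPM). In KPC against no tumor fat, the summed markers of 5 other cell types or states were higher without overlap too. The 5 macrophage markers stood at 808 to 1151 against 195 to 766 CPM, 4 neutrophil markers at 20.3 to 42.2 against 2.74 to 6.02, 4 epithelial markers at 1268 to 2683 against 422 to 1142, 3 markers of dividing cells at 157 to 429 against 32.6 to 88 and the 1 erythrocyte gene in the table at 28.1 to 47.6 against 7.12 to 24.2. Those of skeletal muscle (5 genes, 30.1 to 40.4 against 43.4 to 607) and of fast fibers (7 genes, 2.89 to 4.48 against 6.30 to 136) were lower without overlap. The sums overlapped for 4 fibroblast markers (2074 to 4369 in KPC and 869 to 2751 in no tumor), 4 endothelial markers (206 to 673 and 80.8 to 523) and the epididymis markers (42672 to 66885 and 13491 to 79219). What these contributed to the values of Pkm, Pgk1, Slc2a1 and Pgm1 was not tested.

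Some muscle isoforms spread widely between fat libraries. Pygm was at 2.91, 8.27, 3.91 and 18.3 CPM in no tumor, 3.04, 3.49, 2.09 and 1.82 in KPC and 5.69, 16.3, 25.9 and 145 in KPC IL6KO (KPC against KPC IL6KO, log2 FC -4.20, SE 0.98, FDR 0.558). The size of that log2 FC leaned on KPC IL6KO 8, at 145 CPM where the next library of its group was at 25.9. Eno3 was at 104 CPM in KPC IL6KO 8 and at 19.3 to 38.0 in the other 11 fat libraries. Ckm and Myh4, which belong to muscle fibers, were highest in the same library, at 269.8 and 811 CPM, and were at 0.0650 to 0.539 and 0 to 0.228 CPM in KPC fat. Pgam2 had another pattern, with 87.5 CPM in no tumor 8 and 38.8 in KPC 7 against 0.221 in KPC IL6KO 5. Gapdhs and Pgk2, which are the sperm isoforms of glycolysis, were also highest in no tumor 8 (199 and 154 CPM) and KPC 7 (103 and 64.4 CPM) and lowest in KPC IL6KO 5 (0.172 CPM each). The part of muscle or germ cell RNA in these values was not tested. Eno1 had only 11 to 68 counts in a fat library and is uncertain, since its reads may be shared with a near-identical copy.

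**Figure D4:**
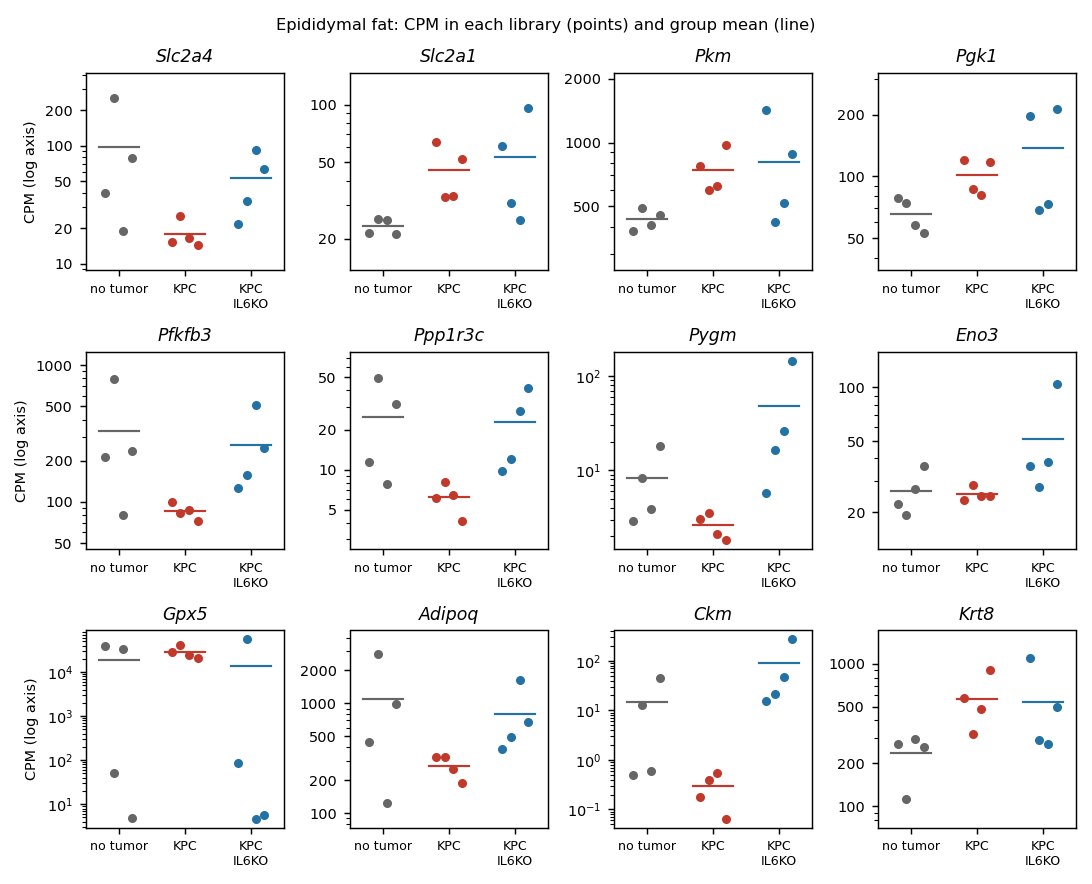
CPM on a log axis of 8 glycolysis and glycogen genes and of 4 markers of other cells (Gpx5 epididymis, Adipoq adipocytes, Ckm muscle fibers, Krt8 epithelium) in each of the 12 fat libraries. No tumor 6 is highest for Adipoq and Slc2a4 and KPC IL6KO 8 for Ckm, Pygm and Eno3.

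Whether the KPC response differed between tissues was tested in 1 fit of all 23 libraries over the 12599 genes in both tables. That fit gave each gene 1 spread estimate for both tissues. The spread between libraries was larger in fat, so the SE may be too small for the fat part. The KPC response differed for 13 of 39 genes at an FDR of at most 0.05 (edgeR), against 38.6% of all genes. Positive values mean a higher log2 FC in fat than in quadriceps. Ldha differed by 1.99 (FDR 0.00912), Tpi1 by 1.89 (FDR 0.000998), Eno3 by 2.02 (FDR 0.00637) and Pgm2 by 1.71 (FDR 0.00445), having fallen in quadriceps and not been called in fat. Pgk1 (1.44), Pkm (1.38) and Pfkl (0.87) differed in that direction too. Negative differences were found for Pfkfb3 (-2.90, FDR 0.00590), Ugp2 (-2.14, FDR 0.00013), Gbe1 (-1.81, FDR 0.0242), Pfkfb4 (-1.20) and Gyg (-1.12), which had risen in quadriceps. Slc2a4 differed by -2.41 (FDR 0.0272), but without no tumor 6 of fat the value was -1.33 (FDR 0.105), with limma voom it was -0.90 (FDR 0.180), and without KPC 1 or any 1 no tumor library of quadriceps the FDR was 0.0511 to 0.0595. Gbe1 was at -1.09 (FDR 0.0712) without no tumor 6 of fat and at -1.74 (FDR 0.0554) without no tumor 3 of quadriceps. Pfkl was at 0.60 (FDR 0.0621) without no tumor 2 of quadriceps, and Pfkfb4 at -1.03 to -1.09 without KPC 1, no tumor 1 or no tumor 2 of quadriceps, none of these past the threshold. Pgam2, with the largest fall in quadriceps, differed by 1.16 with an SE of 1.43 (FDR 0.542), so its wide spread in fat left the difference undetermined.

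**Figure D5:**
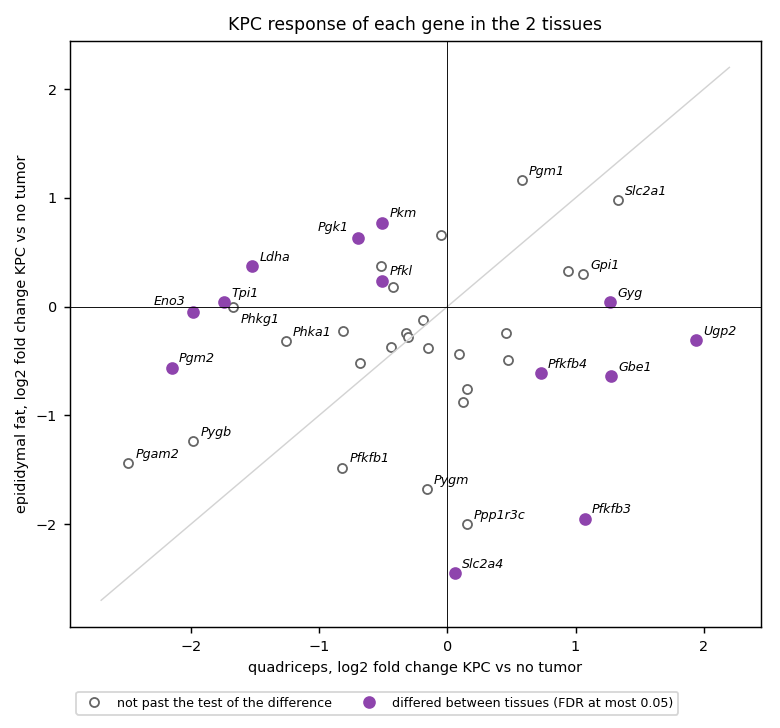
Log2 FC in KPC against no tumor for the 39 genes in quadriceps (horizontal axis) and epididymal fat (vertical axis). Filled points mark the 13 genes whose response differed between tissues, such as Ugp2 (1.94 in quadriceps, -0.31 in fat) and Ldha (-1.52 and 0.37).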

How the data were processed

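RNA from quadriceps (11 libraries) and epididymal fat (12 libraries) was sequenced as paired reads. The unit of both tables is the count, and the authors deposited them as whole reads per gene without normalization, after alignment with STAR to mm10 and counting with featureCounts 1.5.1 (the submitters' processing notes also name FastQC, Subread and edgeR 3.12.1). The rule by which weakly covered genes were dropped before deposit is not given in the sources used here. The paper and the sample labels name different library kits. Another no tumor muscle library, removed by the authors, was not analysed here.

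Groups and replicate numbers came from the sample titles. Counts were normalized by TMM and fitted with edgeR 4.0.16 (quasi-likelihood test, 3 groups of a tissue in 1 fit, no replicate term) in R 4.3.3, after filterByExpr, which removed no gene. Calls needed an FC of at least 1.5 and an FDR (Benjamini-Hochberg, over the whole table) no higher than 0.05. SE values were derived from the log2 FC and its F statistic. CPM are counts over the TMM-normalized library size. Isoform ratios used a pseudocount of 0.5 and 2-sided exact permutation tests. The tissues were compared by an interaction term. DESeq2 1.42.0, limma 3.58.1 and other settings were alternatives. The code was tested on simulated data, and no library pair looked like a duplicate. Figures were drawn with matplotlib 3.10.9.

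The genes and the lists beside them were chosen with earlier results of these data known. All 40 genes could be named, and of each other list the called genes, or the 5 with the largest log2 FC where more were called. Gapdhs and Pgk2, not called in fat, were named there outside this rule, for a pattern like that of Pgam2. Some genes of the other glycolysis list and an allele of the tumor line are not reported here. Gene positions and exon lengths are from the GRCm38.p6 annotation, and promoters from RefSeq on GRCm38.p6, matched by symbol for 37 genes. Motifs were searched on both strands. They were the E-box CANNTG, its palindromic form CACGTG (counted in both), the core ACGTG of the hypoxia response element, a STAT-like motif, TTCNNNGAA, found in 3.64% of the promoters of these genes and 8.3% of all, and a MEF2-like motif (CTA, then 4 free bases, then TAG), found in 5.45% and 3.69%. Reads of Gapdh, Pgam1, Ldha, Aldoa, Tpi1, Pgk1 and Eno1 may be lost to near-identical pseudogenes where mapping had to be unique.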

Additional observations from a re-analysis of the deposited data

Results flagged for a closer look

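In groups of 4 libraries, 198 sets of CPM values were checked for a library far from the other 3 of its group, by Dixon's ratio of gap to range, and 16 were found (7 in quadriceps and 9 in fat). Chance alone would give about 1 in 20.

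In quadriceps, KPC 4 stood apart for Hk1 (32.3 CPM, with the nearest library at 9.45), Pfkp (7.08) and Stbd1 (14, with the nearest at 40.1). KPC 3 was high for Pgam1 (6.33) and KPC 1 for Pfkfb4 (190.2). KPC IL6KO 3 was low for Pkm (3777) and KPC IL6KO 4 high for Phka1 (1349).

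In fat, no tumor 6 was high for Aldoa (1178 CPM) and Tpi1 (455) and low for Fbp2 (1.80). KPC 7 was high for Pgam2 (38.8) and Pfkfb4 (36.2). KPC IL6KO 8 was high for Aldoa (1090.2), Eno3 (104), Pygm (145) and Ppp1r3a (9.60).

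The KPC response differed between the tissues for 13 of 39 genes, by a test of the difference in log2 FC, fat minus quadriceps. Of all genes tested, 38.6% differed. It was higher in fat for Eno3 (2.02), Ldha (1.99), Tpi1 (1.89), Pgm2 (1.71), Pgk1 (1.44), Pkm (1.38) and Pfkl (0.87). It was lower in fat for Pfkfb3 (-2.90), Slc2a4 (-2.41), Ugp2 (-2.14), Gbe1 (-1.81), Pfkfb4 (-1.20) and Gyg (-1.12). The calls of Slc2a4, Gbe1, Pfkl and Pfkfb4 were each lost when certain single libraries were left out.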

How the results depend on the processing

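In KPC against no tumor quadriceps, 15 of the 18 calls held under all 20 other settings, and Aldoc, Pfkfb4 and Epm2a did not. With 1 library left out in turn, 7 to 8 genes rose and 9 to 13 fell, and against KPC IL6KO 6 to 9 and 9 to 13, with 0 called between KPC IL6KO and no tumor. In fat 0 genes were called with any library left out and 10 to 16 differed between tissues. Library totals without a scaling factor, an alternative chosen after seeing the data, moved the median of all quadriceps genes by -0.20 in KPC against no tumor and -0.13 against KPC IL6KO. All genes then split into 2622 higher and 4499 lower in place of 3428 and 3719, and 2842 and 3984 in place of 3381 and 3498, while 6 of the 39 genes rose and 15 fell against no tumor.

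Between KPC IL6KO and no tumor quadriceps, DESeq2 called 1 gene lower (Pygb, log2 FC -1.51, FDR 0.00608), as did edgeR's likelihood ratio test (1 gene, FDR 0.0106). Over all genes they called 30 higher and 66 lower, and 25 and 70, against 0 in the main fit. In fat KPC against no tumor, 1 gene, Pgm1, was called higher by DESeq2, the likelihood ratio test, a fit with epididymis markers as covariate and a fit of the 2 groups only, and also with Gpx5-rich libraries only or without KPC IL6KO 5 and 8, the last 2 chosen after seeing the data. DESeq2 called 3 lower (Slc2a4, Pfkfb3 and Ppp1r3c), the likelihood ratio test 1 (Slc2a4) and the covariate fit 1 (Hk2). Against KPC IL6KO, DESeq2 and the likelihood ratio test called 1 lower (Pygm). Over all fat genes in KPC against no tumor, where the main fit called 0, DESeq2 called 364 higher and 221 lower, the likelihood ratio test 268 and 145, the covariate fit 286 and 30, the Gpx5-rich libraries 342 and 51, the 2 groups alone 166 and 8, the fit without KPC IL6KO 5 and 8 80 and 4, and the newer form of the quasi-likelihood test 15 and 1. For KPC IL6KO against no tumor DESeq2 called 282 and 4 and the likelihood ratio test 209 and 0, and for KPC against KPC IL6KO 19 and 106 and 7 and 59. The cause of these differences was not tested.

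The replicate numbers name different mice and did not pair them. Deviations of same-numbered libraries correlated at -0.15 to 0.26 in quadriceps (10 pairs) and -0.54 to 0.65 in fat (12 pairs). With the replicate number as a block, 7 genes rose and 12 fell in KPC against no tumor quadriceps (Aldoc was lost, and Pfkp and Pfkfb1 were called), 9 and 12 against KPC IL6KO, and 0 were called in the other comparisons.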
